A study of Medicago truncatula with 24 samples.

Results

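miR159 and miR319 are sister families of plant microRNAs whose mature strands differ at few positions. Family membership was decided by sequence: a counted sequence was taken when its closest conserved mature plant sequence, allowing up to 3 mismatches across 18 nt or more, was that of miR159 or miR319, or when it could pair with such a sequence as the other strand of its hairpin. This gave 9 of the 427 counted sequences: 1 mature miR159 sequence, 4 mature miR319 sequences and 4 opposite arms of miR319. No opposite arm was assigned to miR159. Of the 9, 8 had counts, against 343 of 427 over the series.

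miR159 guides the silencing of GAMYB-type MYB transcription factors, which act in gibberellin signalling, anther development and growth. miR319 targets TCP transcription factors of the CINCINNATA class, which limit cell division in growing leaves. In Arabidopsis the families share an origin, their precursors are cut from the loop end, and they act on largely separate targets.

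Small RNAs of the model legume Medicago truncatula were sequenced from the reference genotype A17 and from the mutant cra2, named for its compact root architecture and affected in a receptor kinase for CEP peptides; which cra2 allele was used is not stated in the labels. Plants grew hydroponically with 0.5 mM KNO3, their roots were split at 3 weeks, and for 4 days the local side received 10 mM NH4NO3 (satiety) or 0.05 mM KNO3 (deficit). In all 8 groups the systemic root compartment received no mineral nitrogen. Shoots and distant split roots of 4-week-old plants were taken in triplicate, giving A17 and cra2, shoot and root, satiety and deficit, 24 libraries in all. Single-library labels name the organ and the local treatment but not the compartment, which rests on the series design. They do not say whether replicates came from separate plants or pools, so p-values measure the spread between these libraries. Small RNA libraries cannot check the CRA2 transcript behind the genotype labels, and no small RNA marker list was used to check the organs.

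The 5 mature sequences are shown because the results turn on which of them was counted. They are written 5′ to 3′ as deposited (T for U), and capitals mark the seed, bases 2 to 8.
miR159 form 1: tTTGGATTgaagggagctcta
miR319 form 1: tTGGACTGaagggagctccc
miR319 form 2: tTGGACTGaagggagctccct
miR319 form 3: tTGGACTGaagggagctccca
miR319 form 4: aTTGGAGTgaagggagctcca

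miR319 forms 1, 2 and 3 begin 1 base further in than miR159, so that their first base lies against position 2 of miR159. Over the 20 bases then compared, all 3 differ from miR159 by T7C, T20C and A21C, with positions counted from the 5′ end of miR159 form 1 and its base written first. The forms share the seed TGGACTG, against TTGGATT in miR159. Form 1 has 20 nt and is identical to the first 20 bases of forms 2 and 3, which have 21 nt and differ from each other in the last base. No source used here says how reads shared by the nested forms were assigned.

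Form 4 begins in the register of miR159 and carries another seed, TTGGAGT. It was 1 mismatch from the conserved miR319 core and 2 from that of miR159, and it differs from miR159 form 1 by T1A, T7G and T20C over 21 bases. Against miR319 form 3 it differs by C6G and C20A, counted from the 5′ end of form 3. Its place in miR319 therefore rests on a difference of 1 mismatch, while its start is that of miR159, so its family is uncertain.

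The most abundant opposite arms of miR319 both paired with form 1 with 2 mismatches and 1 GU pair, and are shown to let the strands be compared.
miR319 opposite arm 1: agagctctcttcagtccactc
miR319 opposite arm 2: agagcttccttcagtccactc

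The families were counted at very different levels. miR159 form 1 had 41598723 counts over the 24 libraries, more than any other sequence. miR319 form 1 had 187334, form 2 had 142579, form 3 had 1680 and form 4 had 231. Opposite arm 1 had 276 counts and opposite arm 2 had 152, each present in all 24 libraries. Of the other opposite arms, one had 4 counts in 2 shoot libraries and could pair with miR159 as well, and the last had 0.

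A library total is the sum over the 427 counted sequences, without other reads of the library. Library totals ran from 768323 to 1661422 counts in roots and from 1494211 to 3919811 in shoots. A count of 3 was worth 1.81 to 3.90 CPM of the library total (counts per 1e6) in roots and 0.765 to 2.01 CPM in shoots. Chi-square divided by its degrees of freedom lay between 26.4 and 476 for the pairs of replicates, far above counting noise. One library stood apart: cra2 shoot deficit replicate 2 had the smallest shoot total, the lowest shoot miR159 share and the highest miR319 share of all 24 libraries. The median standard deviation of log2 CPM was 0.61 in its group, against 0.24 to 0.35 in the other 7. Where leaving it out changed a pooled or fitted value by over 1.5 times, that value is given too. For ratios and shares within 1 treatment, values of single libraries are given instead.

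miR159 took most of the counts over the 427 sequences in every library, whatever the organ, genotype or treatment. In A17 roots it took 72.9%, 77.2% and 70.2% of the counts under deficit and 72.9%, 76.2% and 71.3% under satiety (replicates 1 to 3). In cra2 roots it took 67.1%, 73.8% and 71.2% under deficit and 68.9%, 71.9% and 73.0% under satiety. The deficit and satiety ranges overlapped in both genotypes. In A17 shoots the shares were 84.9%, 82.2% and 77.3% under deficit and 84.8%, 84.8% and 84.0% under satiety, and in cra2 shoots they were 81.7%, 73.2% and 78.5% against 84.4%, 82.9% and 83.3%. All 3 cra2 shoot deficit libraries lay below the satiety ones, and in A17 shoots the ranges overlapped.

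miR319 took a far smaller share, with a wider relative range. In A17 roots its 4 mature forms summed to 1.21%, 1.32% and 0.921% of counts under deficit and to 0.596%, 0.642% and 0.522% under satiety. In cra2 roots they summed to 0.819%, 0.724% and 0.804% under deficit and to 0.401%, 0.299% and 0.251% under satiety. In both genotypes every deficit root exceeded every satiety root. In A17 shoots the order was the opposite, with 0.411%, 0.287% and 0.396% under deficit against 0.852%, 0.727% and 0.612% under satiety. In cra2 shoots the ranges overlapped, at 0.600%, 1.65% and 0.413% under deficit against 0.550%, 0.496% and 0.740% under satiety.

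**Figure D1:**
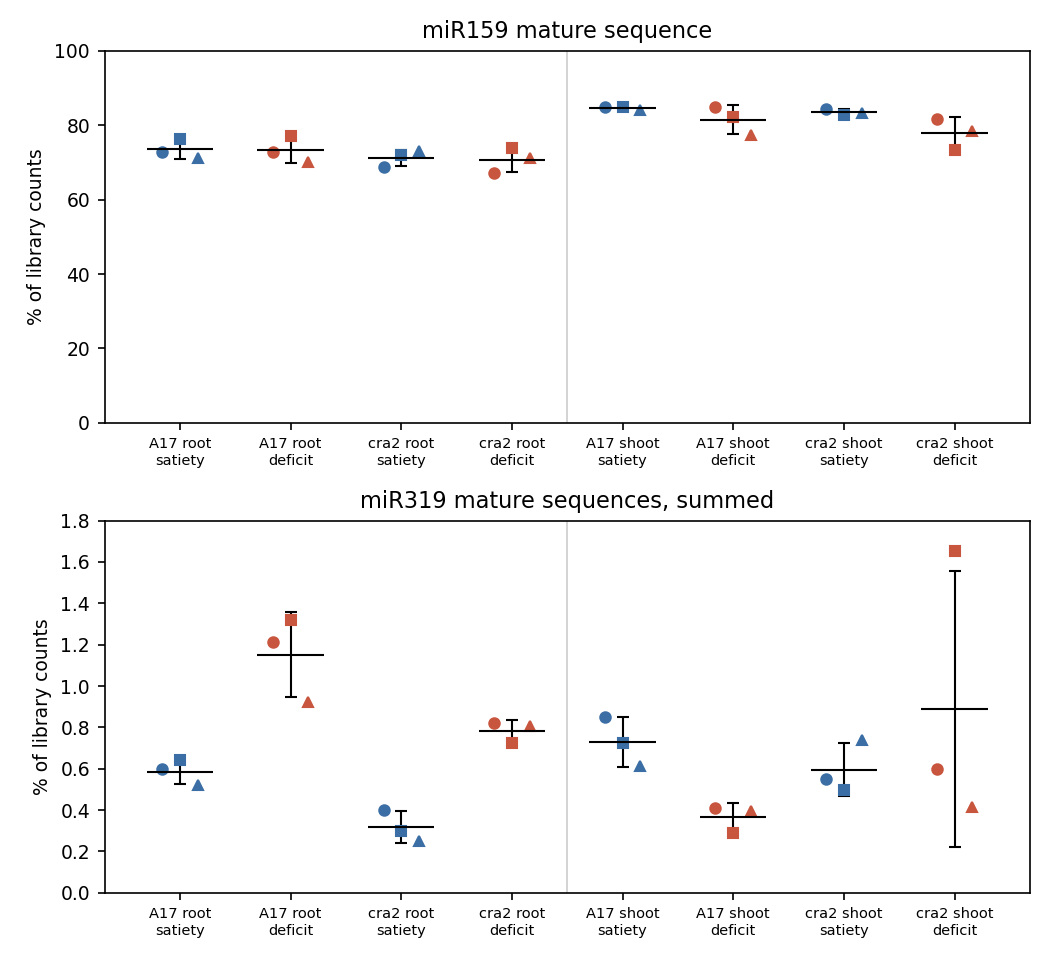
Share of library counts, summed over the 427 counted sequences, in each of the 24 libraries. The upper panel shows miR159 (0 to 100%) and the lower panel the summed mature miR319 forms (axis to 1.8%). Circles, squares and triangles are replicates 1, 2 and 3, blue is satiety, red is deficit, and bars are the mean ± SD of 3 libraries; miR319 lies higher under deficit in both root genotypes, lower in A17 shoots, and cra2 shoot deficit replicate 2 stands at 1.65%.

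Because 1 sequence holds most of the counts of a library, levels below are CPM scaled by TMM. This method sets libraries to a common level over most sequences. Sums were scaled in the family fit and single forms in the sequence fit. CPM of the forms therefore need not add up to CPM of the sum. Each organ was fitted apart, and a change was called at an edgeR quasi-likelihood adjusted p (Benjamini-Hochberg) under 0.05. All counts are relative to the RNA of whole organs, in which fewer cells of a type and less RNA per cell cannot be told apart.

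The local nitrogen deficit went with a higher miR319 level in the distant roots of both genotypes. In A17 roots the miR319 sum was 11937, 15407 and 8943 CPM under deficit and 6087, 6717 and 5128 CPM under satiety. The log2 change was 1.02 ± 0.19 (SE, n = 3 each; edgeR adjusted p = 0.00108). In cra2 roots it was 6520, 6982 and 7676 CPM under deficit and 3645, 3128 and 3083 CPM under satiety, a log2 change of 1.10 ± 0.19 (edgeR adjusted p = 0.000232). No deficit library overlapped a satiety library in either genotype. Of all families and unassigned sequences tested, 24.6% were called in A17 roots and 23.9% in cra2 roots, so a call as such was common. The difference between the 2 responses was 0.09 ± 0.27 log2 (edgeR adjusted p = 0.961), a comparison in which 0.0% of 142 families and sequences and 0.0% of 168 sequences were called by edgeR, 0 by DESeq2, and 16 and 21 had an unadjusted p under 0.05.

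miR159 showed no such change in the same libraries. Its log2 change under deficit was 0.04 in A17 roots and -0.24 in cra2 roots, and neither was called. The sign in A17 roots depended on the scaling, and with only the compared cra2 root libraries and replicates as blocks the cra2 change of -0.24 had an edgeR adjusted p of 0.0131.

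The rise of miR319 in roots was carried by forms 1 and 2. Form 1 had 7124, 8508 and 4787 CPM under deficit in A17 roots and 4038, 4538 and 3574 CPM under satiety (log2 change 0.75 ± 0.19, edgeR adjusted p = 0.00865). Form 2 had 4705, 5845 and 3241 CPM against 2204, 2356 and 1534 CPM (log2 change 1.18 ± 0.23, edgeR adjusted p = 0.00281). Neither form overlapped between the treatments. In cra2 roots form 1 had 4354, 4401 and 4624 CPM against 2431, 2556 and 2185 CPM, a log2 change of 0.90 ± 0.19 (edgeR adjusted p = 0.00194). Form 2 had 2195, 2074 and 2991 CPM against 1310, 983 and 907 CPM, a log2 change of 1.18 ± 0.23 (edgeR adjusted p = 0.00144). The treatments again did not overlap.

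Form 3, the rarer 21-nt form, had 22.0, 17.1 and 35.6 CPM under deficit in cra2 roots and 8.09, 11.3 and 4.03 CPM under satiety, and rose by 1.63 ± 0.42 log2 (edgeR adjusted p = 0.00761). In A17 roots it had 39.4, 36.8 and 31.7 CPM against 32.3, 24.1 and 14.9 CPM and was not called. In roots 3 members were called higher in cra2 and 2 in A17, where 13.7% and 14.9% of all 168 sequences tested were called higher. Form 4 and opposite arm 1, tested in roots too, were not called in either genotype.

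In A17 shoots the miR319 values lay on the other side. The sum was 5046, 3651 and 3938 CPM under deficit and 8888, 7779 and 7141 CPM under satiety, without overlap. The log2 change of -0.91 ± 0.29 did not pass the threshold when all 12 shoot libraries shared 1 estimate of spread (edgeR adjusted p = 0.0620). It passed at -0.98 (edgeR adjusted p = 0.00157) when only the A17 libraries entered, at -0.91 (0.0235) with all 24 libraries, at -0.91 (0.003) without the 3 cra2 shoot deficit libraries, and at -0.80 with DESeq2 (adjusted p = 0.0498). Leaving out the cra2 shoot deficit libraries was chosen after seeing the data. The miR319 change stayed uncalled in 8 of 13 alternatives, and in all 6 omissions of a library (edgeR adjusted p = 0.0822 to 0.224). miR159 had a log2 change of 0.04 in the same shoots and was not called. Of the families and unassigned sequences 7.5% were called, and 0.0% of the 189 sequences. Of these sequences 62 had an unadjusted p under 0.05, and DESeq2 called 33. With only the A17 libraries edgeR called 55 families and sequences and 70 sequences, so a call in that fit was common.

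Single miR319 forms in A17 shoots had the same sign. Form 1 had 2804, 2362 and 2102 CPM under deficit and 4081, 3790 and 3558 CPM under satiety (log2 change -0.65, edgeR adjusted p = 0.103). Form 2 had 2053, 1439 and 1501 CPM against 4126, 3724 and 3315 CPM (log2 change -1.16, edgeR adjusted p = 0.0576). Neither form overlapped between treatments and neither was called in this fit. Form 1 stayed uncalled in 8 of 12 alternatives, form 2 in 7 of 12, and both in all 6 omissions of a library. Both passed with only the A17 libraries (edgeR adjusted p = 0.00959 and 9.65e-05), with all 24 libraries (0.0268 and 0.0115) and without the cra2 shoot deficit libraries (0.0287 and 0.00215), and form 2 passed with DESeq2 (0.0417).

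In cra2 shoots the libraries of the 2 treatments were mixed. The miR319 sum was 5430, 9217 and 4012 CPM under deficit and 6004, 4705 and 7218 CPM under satiety, a log2 change of 0.06 ± 0.29 (edgeR adjusted p = 0.996). Without replicate 2 of the deficit group the value was -0.28 (edgeR adjusted p = 0.822). miR159 had -0.40 and was not called either, and without that library it had -0.09 (edgeR adjusted p = 0.953). No sequence or family was called in this comparison (0.0% of 189 and 0.0% of 160), where edgeR gave 12 and 10 an unadjusted p under 0.05 and DESeq2 called 0.

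**Figure D2:**
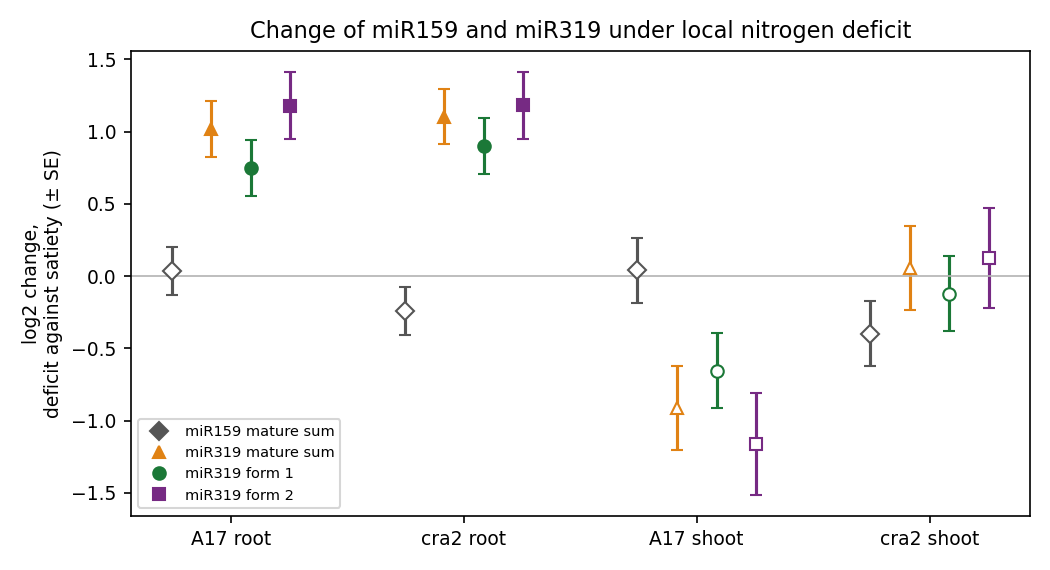
Log2 change under deficit against satiety (points) with its SE (bars) for the miR159 sum, the miR319 sum and miR319 forms 1 and 2, in 4 comparisons of 3 against 3 libraries; sums come from the family fit and forms from the sequence fit, and filled points passed the threshold. Only the miR319 points of both root genotypes are filled.

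The shoot and root responses of miR319 differed in A17. The deficit response of the shoot minus that of the root was -1.93 ± 0.37 log2 for the sum (edgeR adjusted p = 0.000843), and -1.51, -2.45 and -1.56 for forms 1, 2 and 3 (edgeR adjusted p = 0.00193, 0.000712 and 0.0213). The form 3 call was lost in 4 of 12 omissions of a library, at the least -0.99 without A17 root satiety replicate 3 (edgeR adjusted p = 0.188), and in 4 of 9 other alternatives. Of all 200 sequences 18.5% had a called negative difference, and 29.9% of the families and unassigned sequences were called, with a median over all sequences of -0.31. miR159 had 0.02 and was not called. In cra2 the miR319 difference was -0.87 ± 0.37 (edgeR adjusted p = 0.355) where 0.5% of sequences and 0.599% of families and sequences were called. Without cra2 shoot deficit replicate 2 it was -1.32 (edgeR adjusted p = 0.0124).

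Whether the shoot response differed between genotypes was not settled by the test of that difference. For miR319 the cra2 response minus the A17 response was 0.97 ± 0.41 log2 in shoots (edgeR adjusted p = 0.138), and 0.56 without cra2 shoot deficit replicate 2. It was called without replicate 3 of that group (1.20, edgeR adjusted p = 0.0217) and with all 24 libraries (1.11, edgeR adjusted p = 0.0458). miR159 had -0.44 and was not called, and had -0.22 without replicate 2. In this comparison 2.5% of families and sequences were called and 0.0% of the 189 sequences, with 51 sequences at an unadjusted p under 0.05 and 23 called by DESeq2.

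cra2 roots held less miR319 than A17 roots under both treatments. These comparisons use the same libraries as the deficit comparisons above. Under satiety the cra2 libraries lay at 3083 to 3645 CPM and the A17 libraries at 5128 to 6717 CPM, a log2 difference of -0.86 ± 0.19 (n = 3 each; edgeR adjusted p = 0.00109). Under deficit they lay at 6520 to 7676 CPM and 8943 to 15407 CPM, a difference of -0.78 ± 0.19 (edgeR adjusted p = 0.00252). The ranges did not overlap under either treatment. Called families and sequences were 22.5% and 31.0% of those tested.

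By sequence, forms 1, 2 and 3 were lower in cra2 roots under satiety, by -0.76, -0.93 and -1.55 log2 (edgeR adjusted p = 0.0044, 0.00428 and 0.00692), where 17.3% of sequences were called lower. Under deficit forms 1 and 2 were lower, by -0.61 and -0.93 (edgeR adjusted p = 0.0178 and 0.00367), where 20.8% were. The form 1 call under deficit was lost in 5 of 6 omissions of a library (-0.28 without A17 root deficit replicate 2, edgeR adjusted p = 0.253) and in 4 of 10 other alternatives, DESeq2 among them (adjusted p = 0.0501). That of form 2 was lost without A17 root deficit replicate 2 (-0.59, edgeR adjusted p = 0.0773). Under satiety the calls of all 3 forms were lost without cra2 root satiety replicate 3 (edgeR adjusted p = 0.0657, 0.0657 and 0.0517), and that of form 2 also without replicate 2. miR159 differed by 0.02 and -0.26 and was not called. Satiety roots of A17 (5977 ± 801 CPM, SD) and deficit roots of cra2 (7059 ± 582 CPM) were neighbours in the order of root levels, with ranges that overlapped.

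In shoots no genotype difference was called for either family with all 12 libraries. miR319 differed by -0.41 ± 0.29 log2 under satiety (edgeR adjusted p = 0.483) and by 0.56 ± 0.29 under deficit (edgeR adjusted p = 0.211). Scaled by library totals the deficit difference was 1.28 (edgeR adjusted p = 0.0285). With that scaling the median of all families and sequences was 0.60 in place of 0.02. Without cra2 shoot deficit replicate 2 the miR319 difference was 0.26, and without replicate 3 of that group it was 0.77 and called. miR159 differed by -0.14 under satiety and -0.58 under deficit. The latter was -0.25 without replicate 2 and -0.77 without replicate 3 (edgeR adjusted p = 0.0176). Among sequences 6.88% and 13.2% were called, and among families and sequences 3.75% and 10.0%.

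Counts of the families were also set against each other within a library, which needs no scaling but uses the same counts. A17 roots held 60.0, 58.5 and 76.2 miR159 counts per miR319 count under deficit and 122, 119 and 137 under satiety. cra2 roots held 82.0, 102 and 88.5 under deficit and 172, 241 and 291 under satiety. Over both genotypes the miR319 to miR159 ratio was 2.22-fold higher in deficit roots (log2 difference 1.15, 6 against 6 libraries), and no deficit root overlapped a satiety root. The p of 0.005 was the smallest that the two-sided exact permutation test within genotypes could give, or 0.0125 adjusted over 5 comparisons. Within A17 and cra2 the ratios were 1.95-fold and 2.54-fold higher, each at an exact permutation p of 0.1, the smallest possible for 3 against 3.

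The same ratio was 1.60-fold lower in cra2 roots than in A17 roots (log2 difference -0.68; exact permutation p = 0.005, adjusted 0.0125). In A17 shoots 206, 286 and 195 miR159 counts stood against each miR319 count under deficit, and 99.6, 117 and 137 under satiety. This was a 1.93-fold lower miR319 ratio under deficit, without overlap (exact permutation p = 0.1, the smallest possible). In cra2 shoots the values were 136, 44.3 and 190 against 154, 167 and 112, which overlapped (exact permutation p = 0.8).

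Over both genotypes the shoot ratio had a log2 difference of -0.25 between deficit and satiety (exact permutation p = 0.57), and of -0.56 without cra2 shoot deficit replicate 2 (exact permutation p = 0.03). Between genotypes the shoot difference of cra2 minus A17 was 0.41 (exact permutation p = 0.405), and 0.10 without that library. It averages 1.11 under deficit, without overlap, and -0.28 under satiety, with overlap. The deficit value leaned on cra2 replicate 2, with a log2 ratio of -5.47. The other cra2 deficit shoots had -7.09 and -7.57, against -8.16 to -7.61 in A17. Between shoot and root the log2 difference of the ratio was -0.31 (exact permutation p = 0.273), which averages group differences of both signs. These were -1.81 in A17 deficit and 0.69 in cra2 satiety, both without overlap, and 0.10 in A17 satiety and -0.21 in cra2 deficit, both with overlap. The cra2 deficit overlap rested on shoot replicate 2, with a log2 ratio of -5.47. The other shoots of that group had -7.09 and -7.57, below the roots at -6.67 to -6.36. The pooled organ value was -0.46 without cra2 shoot deficit replicate 2, and -0.57 when only the most abundant sequence of each family was used (exact permutation p = 0.0269).

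**Figure D3:**
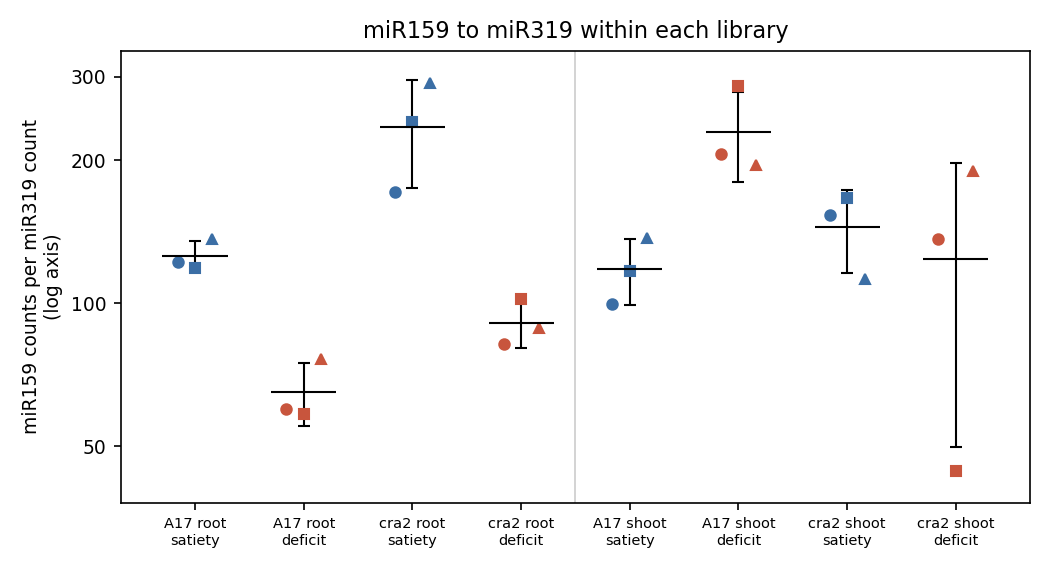
miR159 counts per miR319 count in each library (log axis), with replicates 1, 2 and 3 as circles, squares and triangles, blue for satiety, red for deficit, and bars for the mean ± SD of 3 libraries. The 6 deficit roots lie between 58.5 and 102 and the 6 satiety roots between 119 and 291, while the A17 shoots have the reverse order.

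Between organs, miR159 was the more abundant in shoots under TMM scaling. Its share was 72.2 ± 2.83% in roots and 81.8 ± 3.67% in shoots (SD, n = 12 each). The log2 difference of shoot over root was 0.98 ± 0.14 in A17 (edgeR adjusted p = 2.35e-06) and 0.79 ± 0.14 in cra2 (edgeR adjusted p = 3.77e-05). Scaled by library totals, both were 0.18 (edgeR adjusted p = 0.0338 and 0.0331). With that scaling the median over all families and sequences was -0.93 in place of -0.13 in A17 and -0.64 in place of -0.06 in cra2. In A17 60.0% of sequences and 57.5% of families and sequences were called, and in cra2 56.0% and 53.9%.

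miR319 had no stable order between organs in A17, with a log2 difference of 0.11 ± 0.18 (edgeR adjusted p = 0.589), and -0.67 scaled by library totals (edgeR adjusted p = 0.0122). The value averages opposite differences: on the scale of all 24 libraries shoots had 10120 ± 1408 CPM and roots 4805 ± 772 CPM under satiety, and 5402 ± 1108 CPM and 9743 ± 2354 CPM under deficit (SD, n = 3 each). In cra2 it was higher in shoots by 1.06 ± 0.18 (edgeR adjusted p = 2.3e-05), and by 0.86 without cra2 shoot deficit replicate 2. Under satiety cra2 shoots had 7216 ± 1510 CPM and roots 2555 ± 308 CPM on the same scale, without overlap. Under deficit they had 8288 ± 3723 CPM and 5378 ± 392 CPM. There the shoots, at 5521 to 12520 CPM, overlapped the roots, at 5075 to 5820 CPM. By form, the cra2 differences were 0.78, 1.63 and 2.31 log2 for forms 1, 2 and 3 (edgeR adjusted p = 0.000175, 8.31e-07 and 4.74e-08). Form 3 was a minor part of the sum, with means of 47.6 CPM in cra2 satiety shoots and 59.3 CPM in cra2 deficit shoots. The form 1 difference was 0.20 and not called with library totals. In A17 form 3 was higher in shoots by 0.80 (edgeR adjusted p = 0.0058), and -0.05 with library totals.

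Form 4, whose family is uncertain, was counted in roots alone. It had 30, 9 and 45 counts in A17 deficit roots, 42, 19 and 14 in A17 satiety roots, 17, 12 and 16 in cra2 deficit roots and 6, 12 and 9 in cra2 satiety roots. All 12 shoot libraries had 0. Relative to the library totals this was 17.4 CPM in A17 roots, with single libraries at 6.47 to 33.1 CPM, and 11.5 CPM in cra2 roots. The limit that 0 allows was set at 3 counts over all shoot libraries of a genotype, both treatments together. By it shoots lay under 0.143 CPM in A17 and 0.189 CPM in cra2. Roots were then at least 122-fold higher in A17 and at least 60.7-fold higher in cra2. It passed the filter on low counts through the root groups alone, so no p is given. The shoot libraries were the deeper ones, and these limits cover counting error only.

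Of the opposite arms, arm 2 was lower in A17 shoots than in A17 roots by -1.37 log2 (edgeR adjusted p = 0.0155), on 1 to 10 counts per A17 shoot library and 5 to 16 per A17 root library. The call was lost without A17 root deficit replicate 3 (edgeR adjusted p = 0.0530). In cra2 the difference of arm 2 had the other sign, at 0.62, and was not called (edgeR adjusted p = 0.335). Arm 1 had 1 to 17 counts in each root library and 5 to 27 in each shoot library. Arm 1 was not called in any deficit or genotype comparison within an organ. Arm 2 did not pass the filter on low counts in those fits and was not tested there. At these depths the opposite arms could not show whether the strands moved together.

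The 20-nt form 1 and the 21-nt form 2 of miR319 stood in different proportion in the 2 organs, a comparison added after the data had been seen. Form 2 made up 45.5 ± 4.54% of forms 1 and 2 in shoots and 34.8 ± 4.50% in roots (SD, n = 12 each), a difference of 10.7 percentage points (exact permutation p = 0.000125, adjusted over 5 comparisons 0.000625). By group the difference was 16.2 points in A17 satiety, 13.8 in cra2 satiety, 12.4 in cra2 deficit and 0.306 in A17 deficit, where the organs overlapped.

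In A17 roots the form 2 share was 39.8%, 40.7% and 40.4% under deficit and 35.3%, 34.2% and 30.0% under satiety, without overlap. In cra2 roots it was 33.5%, 32.0% and 39.3% against 35.0%, 27.8% and 29.3%, with overlap. Over both genotypes it was 5.67 points higher under deficit (exact permutation p = 0.015, adjusted 0.0375), and with replicates as blocks the exact permutation p was 0.0625. In A17 shoots the share was 42.3%, 37.9% and 41.7% under deficit against 50.3%, 49.6% and 48.2% under satiety, without overlap.

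In cra2 shoots it was 42.4%, 53.9% and 45.7% against 45.2%, 41.7% and 46.7%, with overlap. Over both genotypes the shoot difference was -2.98 points (exact permutation p = 0.325), and -4.62 without cra2 shoot deficit replicate 2 (exact permutation p = 0.04). Between genotypes the share differed by -3.91 points in roots, cra2 minus A17, (exact permutation p = 0.04, adjusted 0.0667) and by 0.967 points in shoots (exact permutation p = 0.745). The shoot value averages 6.75 points under deficit and -4.82 under satiety, each without overlap, and it was -0.679 without cra2 shoot deficit replicate 2. Under deficit that library had 53.9%, and the other cra2 shoots 42.4% and 45.7%, against 37.9% to 42.3% in A17.

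**Figure D4:**
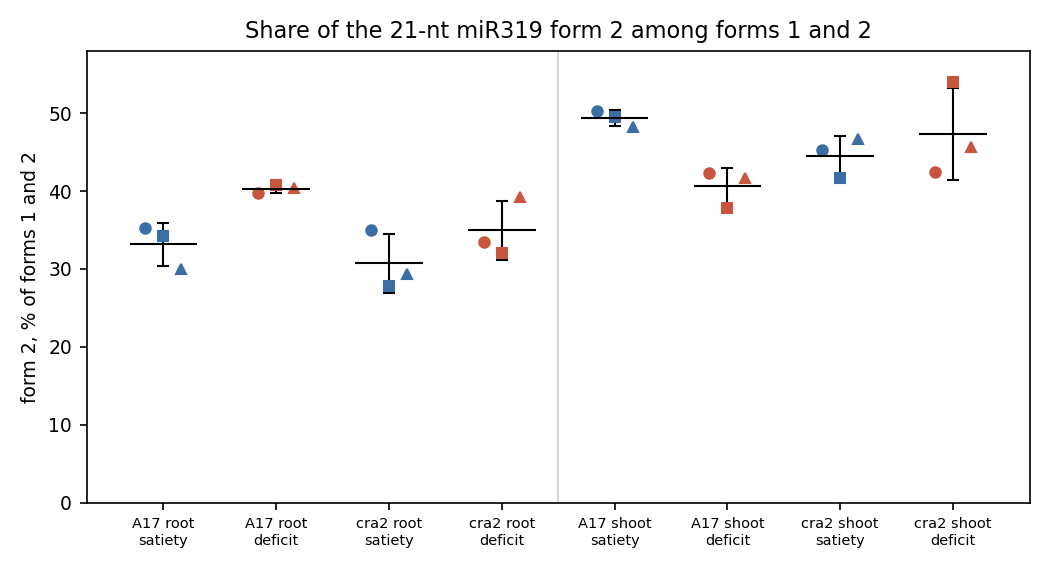
Share of the 21-nt form 2 among miR319 forms 1 and 2 in each library (axis from 0), with replicates 1, 2 and 3 as circles, squares and triangles, blue for satiety, red for deficit, and bars for the mean ± SD of 3 libraries. Shoots average 45.5% and roots 34.8%, and the A17 groups move apart by treatment in opposite directions in the 2 organs.

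Other conserved families of organ development were read beside miR159 and miR319: miR164 (NAC factors), miR166 (class III HD-ZIP factors), miR171 (GRAS factors), miR396 (growth-regulating factors), and miR160 and miR167 (auxin response factors). In A17 roots 5 of their 16 tested sequences were called higher under deficit and 4 lower (14.9% and 16.1% of all sequences), with a median log2 change of 0.33 against -0.00 over all sequences. The called family sums were miR160 (1.02, edgeR adjusted p = 0.00576) and miR164 (0.70, edgeR adjusted p = 0.00835). In cra2 roots 2 of 16 were higher and 4 lower (13.7% and 14.9% of all sequences), with a median of -0.03 against -0.01. There miR164 rose (0.55, edgeR adjusted p = 0.0332) and miR166 fell (-0.62, edgeR adjusted p = 0.00729).

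In A17 shoots 0 of the 20 sequences of these families were called, and 1 family sum was, miR396 (0.69, edgeR adjusted p = 0.0467). In cra2 shoots 0 of 20 sequences and none of the 6 sums were called. DESeq2 and unadjusted counts for these comparisons over all sequences are given above.

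As a description without a test, the sequences whose log2 CPM over the 24 libraries was most like that of miR319 form 1, among 192 candidates, are shown next with their Pearson correlation.
no family, 0.80: ggagtgacactgagaacacaag
miR172, 0.76: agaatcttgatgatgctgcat
no family, 0.72: cggaggattaggtaaaacaac

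Within the 12 roots these correlations were 0.88, 0.89 and 0.88, and within the 12 shoots 0.61, 0.74 and 0.73. miR172 targets AP2-type factors of phase change and flowering. The sequences most alike to miR159 form 1 are given in the same way.
no family, 0.92: tattgcactcatcttccatggc
miR167, 0.90: tgaagctgccagcatgatctg
miR157, 0.88: ttgacagaagatagagggcac

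Within roots these correlations with miR159 were -0.18, -0.19 and 0.61, and within shoots 0.71, 0.72 and 0.29. For the first pair the likeness over 24 libraries was therefore not seen within roots. The libraries share depth and the 8 group means, and no shared function is read from the correlations.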

How the data were processed

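Small RNA libraries were prepared from miRNeasy extracts with a NEXTFLEX kit (v3), per the labels' protocols. Reads were processed with cutadapt, per the submitters' processing notes. Its version, the aligner and the counting rule are not given in any source used here. Deposited values are raw counts for 427 sequences in each of 24 libraries, as whole numbers from the authors, and were used unchanged. They hold no miRNA names and no coordinates.

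Families were named with 36 conserved mature cores of 19 nt from 34 families, written from textbook knowledge (up to 3 mismatches across 18 nt or more). Opposite arms needed 17 or more paired positions, an overhang of 2 nt, and no more than 3 mismatches and 4 GU pairs. Members and lists were chosen with earlier results of these data known.

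edgeR 4.0.16 (R 4.3.3) quasi-likelihood tests used TMM scaling, filterByExpr (minimum count 10) and Benjamini-Hochberg adjustment over all features tested, for sequences and again for families summed per arm beside unassigned sequences. The 12 libraries of an organ, or all 24 between organs, entered as group means. The main alternatives were DESeq2 1.42.0, other scalings and filters, left-out libraries and replicate blocks. Scripts were tested on simulated data. Ratios were tested by two-sided exact permutation within strata (SciPy 1.17.1).

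Members with at least 100 counts or a call were named, with the 3 most alike sequences of miR159 form 1 and of miR319 form 1. Equal replicate numbers were checked by correlating deviations from group means. In A17 roots the pairs of deficit and satiety libraries had 0.136 to 0.349, all over 0.1. A17 deficit shoots with A17 deficit roots had 0.135 to 0.311, and no other pair of groups had all its correlations over 0.1. Such pairing is read from the data and not from the labels. The main tests did not use it, and replicates entered as blocks only in alternatives. Depth is given with the results. SE and SD values include the spread between libraries, whereas the limits set for shoots without counts cover counting error only.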

Additional observations from a re-analysis of the deposited data

Results flagged for a closer look

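Under the same contrast the miR319 forms had opposite signs in the 2 organs of A17, and the test of that difference passed for all 3 in the full fit. The form 3 call was lost in 4 of 12 omissions of a library (-0.99, edgeR adjusted p = 0.188, without A17 root satiety replicate 3) and in 4 of 9 other alternatives. The deficit response of the shoot minus that of the root was -1.51 log2 for form 1, -2.45 for form 2 and -1.56 for form 3, and -1.93 for the sum of the mature forms (edgeR adjusted p = 0.00193, 0.000712, 0.0213 and 0.000843). Both organs came from plants under the same treatments, and the median difference over all sequences tested was -0.31. Groups of 3 libraries are too small to tell an outlying library from spread, so the fits were repeated with each compared library left out.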

How the results depend on the processing

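Counts per library limit form 4 and the opposite arms, and the spread of the cra2 shoot deficit group limits every shoot result. For the family sums, ratios and form shares, 638 of 701 alternative values over 38 results kept their direction and side of the threshold, 10 lost and 15 gained a call, and 38 changed sign. For single sequences and the opposite-arm sum, 441 of 484 over 26 results did not change, 24 lost and 9 gained a call, and 10 changed sign. Ratios and shares are counted here on unadjusted permutation p. The calls of the summed miR319 forms in roots, between treatments and between genotypes, held under every alternative run, as did that of their A17 organ responses. Single-form calls did not all hold: those between genotypes in roots and form 3 in the A17 organ responses are given in the report. Causes of the changes below were not tested.

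The miR319 change in A17 shoots gained a call at -0.797 (DESeq2), -0.981 (only the libraries compared), -0.996 (the same with a replicate block), -0.906 (all 24 libraries) and -0.911 (cra2 shoot deficit libraries left out). Leaving out the cra2 group, and the block with only the libraries compared, were chosen after seeing the data. The other 8 of 13 alternatives and all 6 omissions of a library gave this miR319 change no call. The cra2 root change of miR159 gained one at -0.238 with a replicate block and only the libraries compared, the root form share lost its call at 5.67 points with a replicate block, and the replicate block changed no other call of a sum, ratio or share. Gains also came for the miR319 shoot genotype difference under deficit (1.28, library totals), its shoot genotype-by-treatment difference (1.11, all 24 libraries) and the organ ratio (-0.568, most abundant sequences only).

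Signs changed as follows. With library totals they were -0.0540 (miR159, A17 shoot deficit), -0.000954 (miR159, A17 root deficit), 0.433 (form 1, cra2 shoot deficit), -0.0435 (miR159, root genotype under satiety), -0.0452 and -0.671 (form 3 and miR319, A17 organs) and -0.0530 (miR159, A17 organ responses). With RLE they were -0.0267 (miR159, A17 root deficit) and 0.00430 (miR159, shoot genotype under satiety), and with DESeq2 -0.0268 and 0.00429 for the same. With upper-quartile scaling they were -0.0330 and -0.0943 (form 2 and miR319, cra2 shoot deficit), 0.166 (miR159, shoot genotype under satiety), -0.304 (miR319, root genotype-by-treatment) and 0.321 (miR159, cra2 organ responses). For miR159 in A17 shoots they were -0.0231 with only the libraries compared and -0.0446 with a block as well, and with both arms summed -0.0639 (A17 root deficit) and -0.0636 (root genotype under satiety). That last comparison also gave -0.129 (no filter), -0.0446 (at least 10 CPM in 3 libraries) and -0.0312 (all 24 libraries), and form 1 in cra2 shoots 0.00841 and 0.0403 under the latter pair.

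Leaving out 1 library at a time gave, where a call or a sign changed, log2 ratios of -0.564 to -0.0387 (shoot deficit), form shares of -4.62 to -1.74 points (shoot deficit), -0.679 to 2.20 (shoot genotype) and -4.99 to -3.17 (root genotype, where 9 of 12 omissions took the unadjusted p above 0.05). For miR159 the ranges were -0.0979 to 0.121 (A17 root deficit), -0.208 to 0.0166 and -0.770 to -0.245 (shoot genotype under satiety and deficit), -0.154 to 0.0659 (root genotype under satiety), and -0.0713 to 0.290 and -0.188 to 0.202 (organ responses in A17 and cra2). For miR319 they were -0.282 to 0.329 (cra2 shoot deficit), with -0.340 to 0.132 and -0.401 to 0.411 for forms 1 and 2, 0.255 to 0.766 (shoot genotype under deficit), 0.558 to 1.20 and -0.0913 to 0.307 (genotype-by-treatment in shoot and root) and -1.32 to -0.650 (cra2 organ responses). The shoot deficit ratio and form share were called only without cra2 shoot deficit replicate 2, as was the cra2 organ response of miR319; leaving out replicate 3 of that group gave calls of miR319 and miR159 between shoot genotypes under deficit, and of the miR319 genotype-by-treatment difference.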
